A study of Mus musculus with 4 samples.

Results

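The proteasome subunit genes were taken as the autosomal protein-coding genes of the GENCODE vM1 annotation of mm9 whose symbol is Psma, Psmb, Psmc, Psmd, Psme, Psmf or Psmg followed by digits only. The rule found 47 genes among 21281 autosomal protein-coding genes, and 1 further gene of these names, Psmd10 on chromosome X, was left out by it. Coverage by H3K36me3, trimethylation of lysine 36 of histone H3, was compared between the subunits of the constitutive proteasome, the immune subunits Psmb8, Psmb9 and Psmb10, the thymus subunit Psmb11 and the testis subunit Psma8.

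H3K36me3 was measured by ChIP-seq, chromatin immunoprecipitation with sequencing, in male germ cells of juvenile mice of 2 strains at 14 days post partum (dpp), while the input samples carry the age 15 dpp. The first strain was C57BL/6J, called B6, which carries the Dom2 allele of Prdm9, and the second was B6.Cg-Prdm9<tm1.1Kpgn>/Kpgn, called KI, a B6 strain in which the DNA-binding zinc fingers of the endogenous Prdm9 were replaced by those of the Cst allele. PRDM9 is the meiotic methyltransferase that sets the places of recombination, so both strains share the B6 genome and differ by design in where PRDM9 binds. The 2 biological replicates of each strain were merged before regions were called, which left 1 pooled list of each kind per strain, no replicate error and no test between strains or genes.

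The proteasome is the barrel-shaped protease that degrades ubiquitinated proteins. Its core particle is a stack of rings of alpha subunits, which form the gate, and beta subunits, some of which carry the proteolytic sites, and a regulatory particle of ATPase and non-ATPase subunits recognises, unfolds and feeds the substrate. Interferon-induced immune beta subunits replace the catalytic ones when peptides are made for antigen presentation, and in male germ cells the alpha subunit PSMA8 and the activator PSME4 are known parts of a testis proteasome. H3K36me3 is deposited in the wake of elongating RNA polymerase and lies over the bodies of transcribed genes, toward their 3′ ends.

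The deposited lists hold broad regions, which start on a 500 bp grid, and refined peaks, narrower intervals of highest signal placed inside them. Coverage is the percent of a gene's span, from its annotated start to its end, that lies in a broad region, and a gene was called covered at 50% or more. B6 had 54458 distinct broad regions and 58502 refined peaks, and KI had 66566 and 72692. The autosomal broad regions took up 424.7 Mb in B6 and 407.2 Mb in KI, and the read depth behind a single region is not given in the lists. Of the marker genes looked at as a check on the cell type, all 9 spermatocyte genes were covered in both strains, at 77.4% or more, among them Sycp3, a component of the synaptonemal complex, at 98.6%. The 6 Sertoli cell genes had a median coverage of 35.9% in B6 and 0.167% in KI, and each of them was higher in B6. Wt1, which is active in Sertoli cells, was at 71.7% in B6 and 8.49% in KI. Of the 5 spermatogonia genes 4 were covered in B6 and 3 in KI, with medians of 87.7% and 70.2%. In each strain 1 of the 5 Leydig cell genes was covered, Star, at 100%, and 1 of the 6 blood and immune cell genes, Cd68, at 100%. Among the others Cd3e was at 36.9%, Csf1r at 18.1% and Hbb-b1 at 0% in both strains, and Ptprc, the pan-leukocyte antigen, was at 2.22% in B6 and 2.67% in KI.

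Promoter sequence is shown for 3 catalytic beta subunits that differed in coverage, the constitutive Psmb5 and Psmb6 and the immune Psmb10, as the 250 bases before the RefSeq start, on the gene's own strand and placed on mm9 by exact match. Capitals mark the core of an antioxidant response element, TGACNNNGC, the site of Nrf-type activators of proteasome genes.
Psmb5 promoter, chr14:55236833-55237082, minus strand: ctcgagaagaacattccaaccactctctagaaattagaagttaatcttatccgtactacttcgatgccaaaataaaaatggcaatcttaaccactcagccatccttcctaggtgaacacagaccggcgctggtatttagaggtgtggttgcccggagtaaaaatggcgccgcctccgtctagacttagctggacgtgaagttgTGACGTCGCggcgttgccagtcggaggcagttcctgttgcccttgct
Psmb6 promoter, chr11:70338609-70338858, plus strand: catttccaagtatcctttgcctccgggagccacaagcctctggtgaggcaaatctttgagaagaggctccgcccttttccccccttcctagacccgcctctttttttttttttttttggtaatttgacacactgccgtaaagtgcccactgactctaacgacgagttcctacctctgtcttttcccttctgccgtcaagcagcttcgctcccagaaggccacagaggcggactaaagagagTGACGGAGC
Psmb10 promoter, chr8:108462293-108462542, minus strand: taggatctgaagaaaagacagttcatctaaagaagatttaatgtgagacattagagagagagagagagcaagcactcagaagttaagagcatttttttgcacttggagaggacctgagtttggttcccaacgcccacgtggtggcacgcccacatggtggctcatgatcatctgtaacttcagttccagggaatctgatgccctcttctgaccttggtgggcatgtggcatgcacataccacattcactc

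The match in Psmb5 began 47 bases and that in Psmb6 9 bases before the start, and Psmb10 held none. In addition, 2 intragenic sequences show where the refined peaks of B6 and KI overlapped within genes that were covered from end to end in both strains. In Psmd2, which encodes a large scaffold subunit of the base, capitals mark the exon. The stretch in Psmc3, a base ATPase gene, is intronic.
Psmd2 shared peak, chr16:20654995-20655238, plus strand: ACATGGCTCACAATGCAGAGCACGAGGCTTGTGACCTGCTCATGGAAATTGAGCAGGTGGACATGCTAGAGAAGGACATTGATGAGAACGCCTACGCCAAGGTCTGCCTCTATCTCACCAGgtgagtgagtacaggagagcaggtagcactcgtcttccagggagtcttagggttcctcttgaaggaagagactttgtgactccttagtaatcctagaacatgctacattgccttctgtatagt
Psmc3 shared peak, chr2:90896514-90896678, plus strand: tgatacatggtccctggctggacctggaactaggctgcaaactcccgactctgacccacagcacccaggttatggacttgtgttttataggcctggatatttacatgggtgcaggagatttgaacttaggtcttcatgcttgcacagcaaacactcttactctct

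Proteasome subunit genes were covered more often than autosomal genes at large. Of the 47 genes, 43 (91.5%) were covered in B6, against 43.2% of all genes, and 42 (89.4%) in KI, against 41.6%. The 42 genes covered in KI were covered in B6 as well, against 40.2% of all genes in both strains. Coverage reached 90% in both strains for 29 of the 47 (61.7%), against 22.9% of all genes, and lay under 5% in both for 2, Psmb8 and Psmb9 (4.26%), against 38.4%. The median coverage of the members was 94.6% in B6 and 93.2% in KI, whereas that of all genes was 21.6% and 19.1%.

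Long genes were covered more often in the whole annotation, and the members stood above the background in every length class. Under 5 kb, 6 of 9 members were covered in both strains against 18.5% of all genes of that length. From 5 to 20 kb the count was 22 of 24 against 45.8%, and at 20 kb or more it was 14 of 14 against 49.1%. The 3 short members that were not covered were Psmb8, Psmb10 and Psmb11, while short constitutive genes such as Psmb4 and Psmb6 were. The covered stretch over Psmb4 also reached Pogz, so that its coverage cannot be assigned to Psmb4 alone. The stretch over Psmb6 met no other protein-coding gene.

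**Figure D1:**
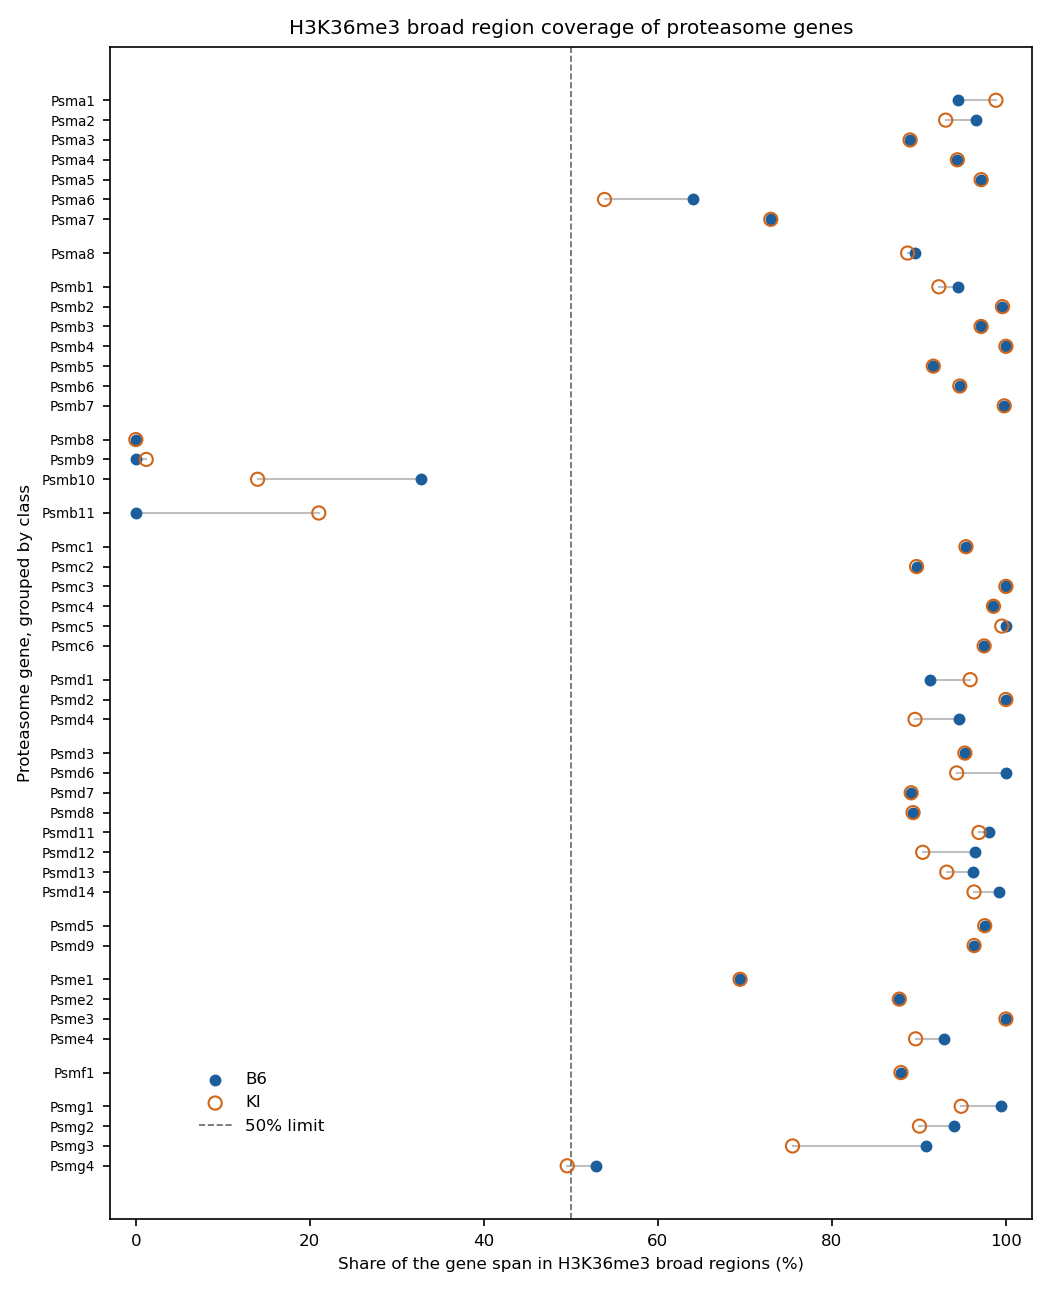
Coverage of each of the 47 proteasome subunit genes by broad H3K36me3 regions, in percent of the gene's span, in B6 and KI, with genes grouped by role and the 50% limit drawn as a line. Each point is 1 pooled list, so there are no error bars. The immune and thymus beta subunits lie at 32.8% or less, and the other genes lie at 49.6% or more.

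The 7 constitutive alpha ring genes, which encode the gate of the core particle, were all covered in both strains, with a median of 94.4% in B6 and 93.1% in KI. Psma5 was at 97.1% in both strains, Psma4 at 94.4% in both, and Psma1 at 94.5% in B6 and 98.9% in KI. Psma2 was at 96.6% and 93.1%, and Psma3 at 89.0% in both. The remaining pair of the ring had lower values. Psma7 was at 73.0% in both strains, since its first covered base lay 1638 bp from its start in a gene of 6061 bp. Psma6 was at 64.1% in B6 and 53.9% in KI. Its main domain, meaning a run of touching broad regions, covered the 3′ part of the gene, and RefSeq lists another start for Psma6 at 14603 bp inside the GENCODE gene. In B6 a separate domain of 3000 bp lay near the GENCODE start, with a refined peak centred 3463 bp from it, and KI had no broad region at that peak.

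Psma8, the meiotic counterpart of Psma7, was covered at 89.6% in B6 and 88.7% in KI, which was 16.6 and 15.7 percentage points above Psma7. The gene spans 56149 bp on chromosome 18, and its first covered base lay 841 bp from the start in B6 and 341 bp in KI. It held 5 refined peaks in B6, more than any other member in that strain, and 6 in KI. Only 1 of the 5 overlapped a KI peak. In B6 the peaks were centred at 47.3% to 91.7% of the gene's length from its start, and in KI at 4.82% to 81.7%.

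The 7 constitutive beta ring genes were the most evenly covered class of the core, with 91.7% or more in each strain and a median of 97.1% in both. Psmb4 was covered from end to end in both strains, Psmb2 was at 99.6%, and Psmb3 at 97.1% in both. Psmb1 was at 94.5% in B6 and 92.3% in KI. The genes of the 3 catalytic subunits were among them: Psmb5, for the chymotrypsin-like site, was at 91.7%, Psmb6, for the caspase-like site, at 94.7%, and Psmb7, for the trypsin-like site, at 99.8%, with equal values in B6 and KI.

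The immune subunits that take the place of these 3 in the immunoproteasome were not covered in either strain. Of all genes 43.2% were covered in B6 and 41.6% in KI. Among genes under 5 kb, the length class of Psmb8 and Psmb10, 18.5% were covered in both. With 3 genes, the lack of coverage cannot be told apart from these shares. Psmb8, which replaces PSMB5, had no covered base in B6 or in KI. Psmb9, which replaces PSMB6, had none in B6 and 1.2% in KI. Psmb10, which replaces PSMB7, was at 32.8% in B6 and 14.0% in KI. No refined peak lay in any of the 3. Psmb10 passed the limit in B6 once the first 1000 bp of each gene were left out. Set against its constitutive counterpart, Psmb8 was lower by 91.7 points in both strains. Psmb9 was below Psmb6 by 94.7 points in B6 and 93.5 in KI, and Psmb10 was below Psmb7 by 67.1 and 85.8. Length differs within these pairs: Psmb7 spans 56052 bp and Psmb10 2665 bp, whereas Psmb6, at 2492 bp, is shorter than Psmb9 at 5766 bp, and Psmb5 and Psmb8, at 4208 and 3734 bp, are alike.

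Psmb8 (chr17:34334666-34338399) and Psmb9 (chr17:34318932-34324697) lie in the class II region of the major histocompatibility complex, next to Tap1 and Tap2, the peptide transporter genes. In B6 both fell in 1 uncovered stretch of 141000 bp, chr17:34264001-34405000, which also held Tap1, Tap2, H2-Ob, H2-DMa, H2-DMb1 and H2-DMb2. In KI the stretch was 85500 bp, chr17:34319001-34404500, and ended at a region of 3500 bp that touched the 3′ end of Psmb9. Psmb9 and Tap1 overlap at their 5′ ends, and neither had a covered base there.

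Psmb10 (chr8:108459628-108462292) lies among covered genes. The covered bases of Psmb10 were at its 3′ end, and they belonged to a domain that ran 33627 bp past that end in B6 and 10127 bp in KI and took in Ctrl and Pskh1, which were at 100% and 94.7% in both strains. The 5′ part of Psmb10 lay in an uncovered stretch of 2500 bp in B6 and 3000 bp in KI. On its other side Lcat was at 100% in B6 and 60.9% in KI. Broad regions carry no strand, so that coverage of a gene's end cannot be assigned to the gene or to its neighbour.

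Psmb11, the beta subunit of thymic cortical epithelium, lies at chr14:55244147-55248393, next to Psmb5 and on the other strand. It had no covered base in B6 and 21.0% in KI, so that Psmb5 was above it by 91.7 and 70.6 points. In B6 an uncovered stretch of 12000 bp ran from the start side of Psmb5 to beyond the end of Psmb11. The KI coverage came from 1 region of 2500 bp over the 3′ end, chr14:55247501-55250000, with a refined peak at chr14:55248204-55248457 that lay in no broad region of B6.

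**Figure D2:**
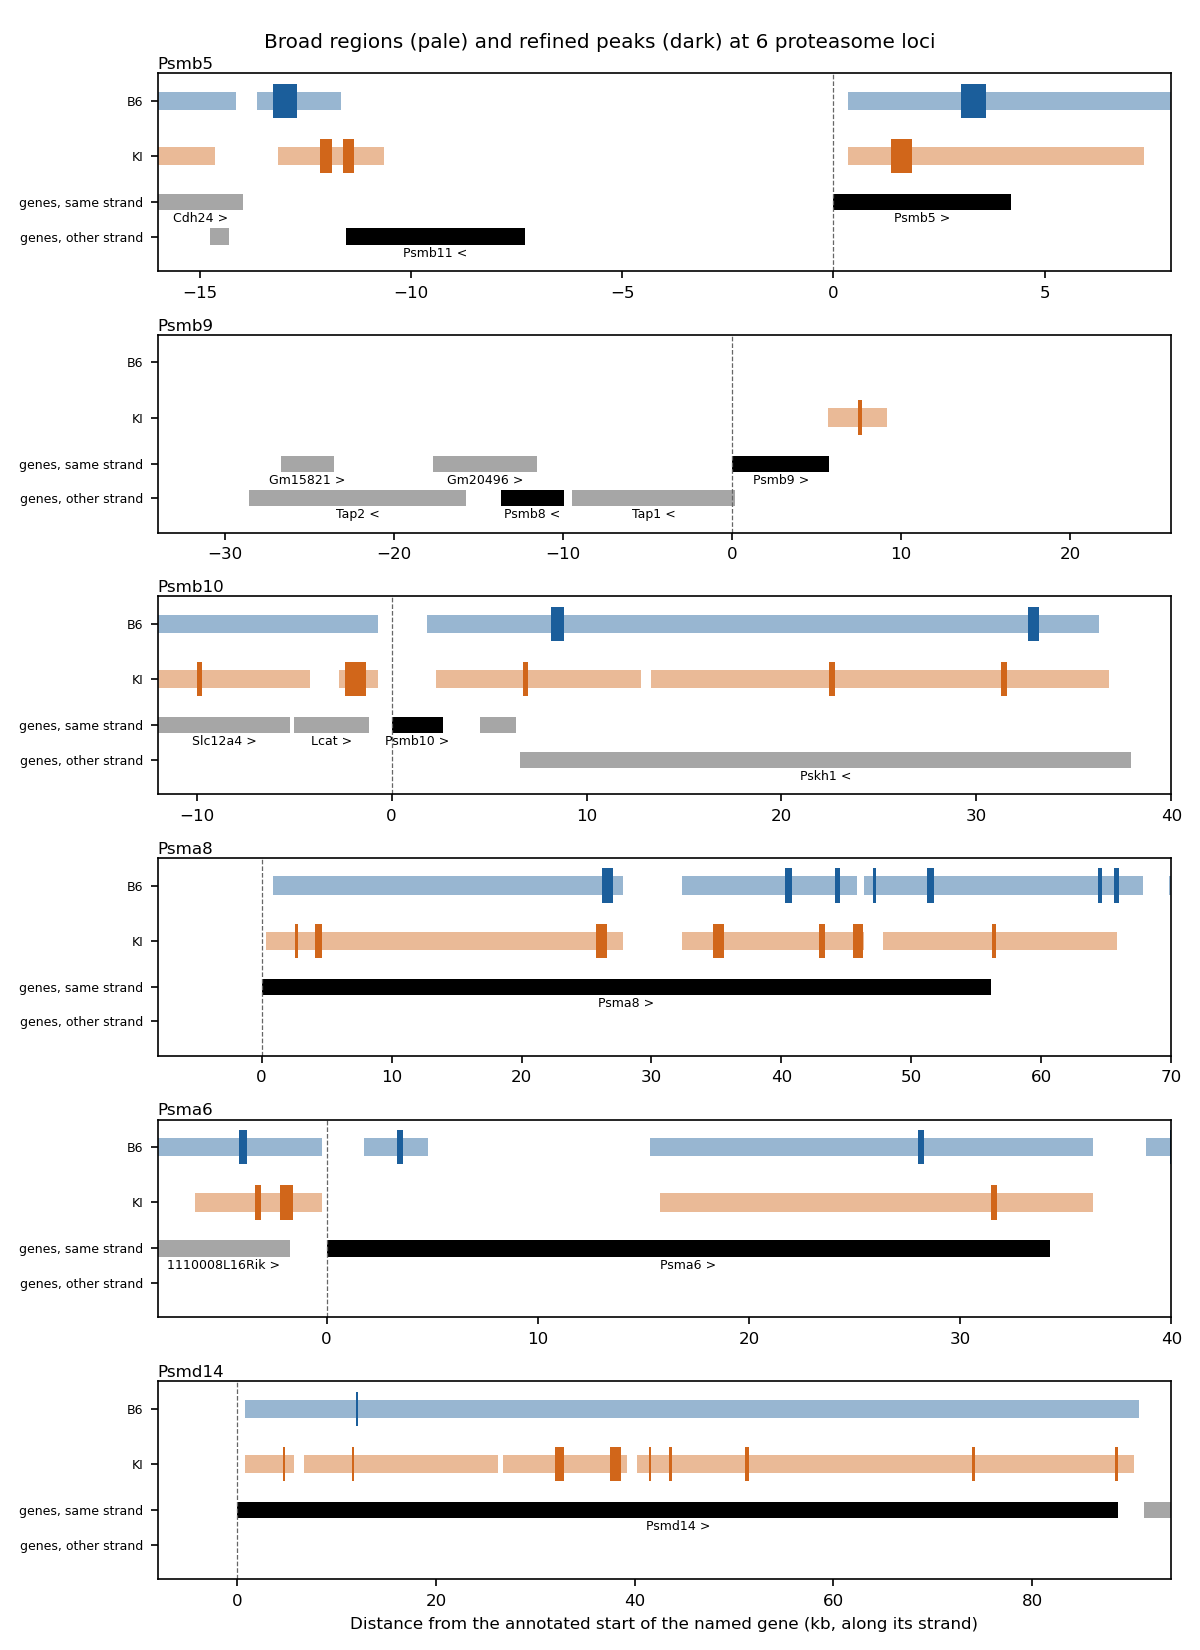
Broad regions (pale bars) and refined peaks (dark bars) of B6 and KI around Psmb5, Psmb9, Psmb10, Psma8, Psma6 and Psmd14, with proteasome genes in black and other protein-coding genes in grey, against the distance in kb from the start of the named gene along its strand. Psmb9 and Psmb8 lie in a stretch without B6 regions, and the Psmd14 gene is spanned by 1 domain in B6 and by 4 in KI.

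All 9 genes of the base of the regulatory particle were covered in both strains. The 6 ATPase genes, which encode the ring that unfolds substrates, had a median of 98.0% in each strain and a lowest value of 89.7%, and each of the 6 had the same coverage in B6 and KI within 1 point. Psmc3 was at 100% in both strains, Psmc5 at 100% in B6 and 99.5% in KI, and Psmc2 at 89.7% in both. Psmc1, Psmc4 and Psmc6 were at 95.4%, 98.6% and 97.5% in both strains. Psmc2 had its first covered base 1900 bp from its annotated start, and RefSeq lists another start 1464 bp inside the gene. Among the non-ATPase genes of the base, Psmd2 was at 100% in both strains. Psmd4, for a ubiquitin receptor, was at 94.6% in B6 and 89.6% in KI, and Psmd1, for a large scaffold subunit, at 91.3% and 95.9%. The last part of Psmd1 lay in a domain that also held Armc9.

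The 8 lid genes were covered in both strains, with medians of 96.3% in B6 and 93.8% in KI and a lowest value of 89.1% in each. Psmd14, for the deubiquitinase that removes ubiquitin from the substrate, was at 99.2% in B6 and 96.3% in KI. In B6 a single domain of 90000 bp spanned its 88683 bp, and in KI 4 domains of 5000 to 50000 bp did, and the gene held 9 refined peaks in KI against 1 in B6. Psmd6 was at 100% and 94.3%, Psmd12 at 96.5% and 90.4%, and Psmd7 at 89.1% in both strains. Psmd3 and Psmd8 were at 95.3% and 89.3% in both strains, Psmd11 at 98.0% and 96.9%, and Psmd13 at 96.2% and 93.2%. In Psmd12 the annotated last base lay outside the regions of both strains. Of the 8 lid genes 5 were higher in B6 by 1 point or more, and none was higher in KI. Over all 21281 genes the lean was the same, with 6068 higher in B6 by that much and 3415 in KI. Psmd5 and Psmd9, the chaperones of base assembly, were at 97.6% and 96.3% in both strains.

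Activators and the inhibitor of the core particle were covered too. Psme3, for the nuclear activator, was at 100% in both strains. Psme4, for the activator that binds acetylated histones in spermatids, was at 92.8% in B6 and 89.6% in KI over 108636 bp, the longest span of the members. Its first covered base lay 3775 bp from the start in B6 and 9775 bp in KI, and the B6 refined peak centred 4660 bp from the start was in no broad region of KI. Psme1 and Psme2, for the interferon-inducible activator, lie near each other on chromosome 14 and, unlike the interferon-inducible beta subunits, were covered, at 69.4% and 87.7% with equal values in B6 and KI. The domain over Psme1 also held Fam158a, which overlaps it, so that this coverage cannot be assigned to Psme1 alone. That over Psme2 held no other protein-coding gene. Psmf1, for the inhibitor, was at 87.9% in both strains, with its first covered base 3422 bp from the GENCODE start and 546 bp from the start that RefSeq gives.

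The core assembly chaperones had the widest range among the classes of constitutive genes. Psmg1 was at 99.4% in B6 and 94.9% in KI, Psmg2 at 94.0% and 90.1%, and Psmg3 at 90.9% and 75.5%. Psmg4 was at 52.9% in B6 and 49.6% in KI, just above and just under the limit, with an uncovered middle of 6000 bp in B6 and 5500 bp in KI. All 4 had lower values in KI, which was the more frequent direction over all genes as well. Psmg4 is the gene by which the counts of covered members, 43 and 42, differ.

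Genes that work with the proteasome without being subunits by name resembled the constitutive subunits. Of 21 such genes 20 were found in the annotation, and 19 of them were covered in each strain, with a median of 95.8% in B6 and 95.7% in KI. Vcp, the segregase that delivers ubiquitinated proteins, was at 95.7% in both strains. Nfe2l1, for an activator of proteasome gene transcription, was at 93.8% in B6 and 97.8% in KI, and Pomp, for the maturation factor of the core, at 94.7% and 98.0%. Usp14, for a proteasome-bound deubiquitinase, was at 67.6% and 66.6%. Ddi1 was the only 1 of the 20 without a covered base in either strain, whereas its paralog Ddi2 was at 99.3% in both.

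Genes of class I antigen processing, the pathway the immune subunits serve, were mixed. Of 9 genes 8 were found, and 4 were covered in B6 and 5 in KI, against 43.2% and 41.6% of all genes. A list of 8 genes is too short to be told apart from these shares. Tap1 and Tap2 had no covered base in either strain. B2m, for the light chain of class I molecules, was at 61.5% in B6 and 52.2% in KI, Erap1, for a peptide-trimming enzyme, at 82.6% and 60.7%, and H2-K1, a class I heavy chain gene with close paralogs, at 70.4% in both. H2-D1 was at 40.8% and 61.7%, and Tapbp, for the loading chaperone tapasin, at 46.0% and 23.6%. Irf1, for an interferon-induced activator of the immune subunits, was at 88.2% in both strains.

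Coverage of the 42 members that passed the limit in both strains began shortly inside the gene. The first covered base lay a median of 570.5 bp from the annotated start in B6 (interquartile range 149.75 to 831.25) and 645.0 bp in KI, against 901.0 and 963.0 bp over the 8549 genes covered in both strains. The comparison is not matched for length: the median length was 12871.5 bp for the members and 22012 bp for all covered genes. In a gene called covered this distance cannot exceed 50% of the length, so the largest possible distance is smaller in shorter genes. Since region starts fall on a 500 bp grid, distances of single genes are known to about that step. In B6 47.6% of the 42 were covered at 500 bp inside the start and 81.0% at 1000 bp, against 26.9% and 53.9% of all covered genes. In KI the shares were 42.9% and 71.4%, against 26.1% and 50.5%. Without genes that have a divergent protein-coding start within 1000 bp, the B6 medians were 570.5 bp for 34 members and 928.0 bp for all covered genes. Such a partner was present for 9 of the 47 members (19.1%), against 11.1% of all genes.

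At most annotated starts no broad region was called. The annotated start lay in a broad region for 6 of the 47 members in B6 (12.8%), against 5.8% of all genes, and for 4 in KI (8.51%), against 6.09%. Among covered genes the shares were close, with 14.3% of the 42 members against 11.2% of all covered genes in B6, and 9.52% against 10.9% in KI. The 4 genes were Psmb4, Psmc3, Psmd2 and Psme3, and Psmc5 and Psmd6 joined them in B6. Coverage went on past the annotated end, by a median of 4143.0 bp in B6 and 3513.0 bp in KI over the 41 members whose last base was covered, against 4078.0 and 3624.5 bp over all covered genes. At 2000 bp past the end 83.3% of the 42 members were covered in B6 and 78.6% in KI, against 76.6% and 72.1% of all covered genes. For a covered member the widest domain measured 20500 bp in B6 and 17500 bp in KI at the median. It held no other protein-coding gene for 26 members in B6 and 27 in KI, and for the others the values cannot be separated from those of the neighbour.

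**Figure D3:**
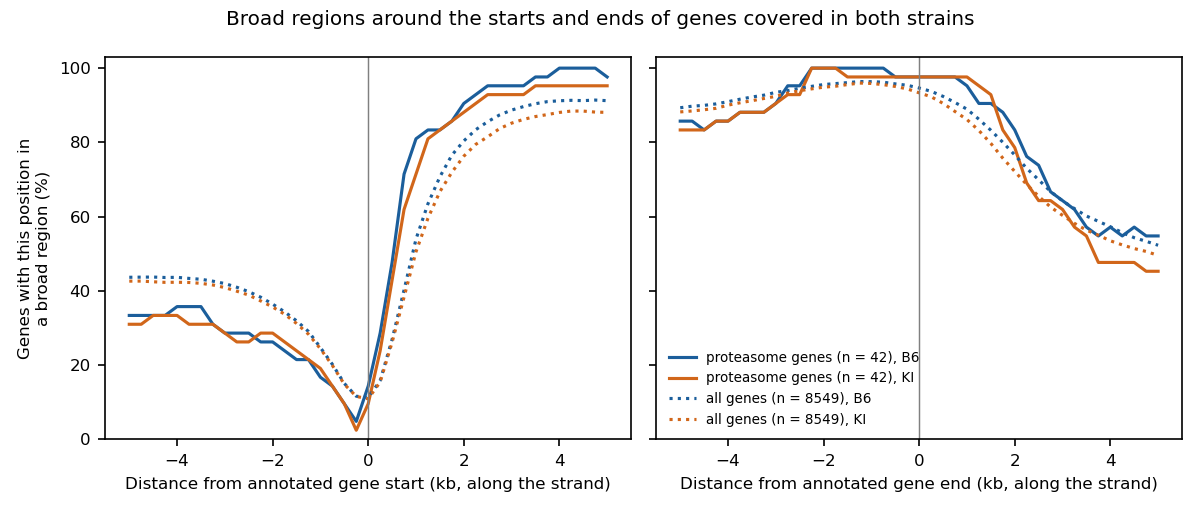
Percent of genes with a position in a broad region, at steps of 250 bp from 5000 bp before to 5000 bp after the annotated gene start (left) and gene end (right), for the 42 proteasome genes covered in both strains (solid lines) and all 8549 such genes (dotted lines), in B6 and KI. The solid lines reach 81.0% (B6) and 71.4% (KI) at 1000 bp inside the start, above the dotted lines at 53.9% and 50.5%.

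Of the 47 members, 39 had a promoter in the RefSeq table, of 300 bases from 250 before the start to 50 after it, and these genes had 42 promoters. Members without an entry are Psma8, Psmb1, Psmb2, Psmb7, Psmc3, Psmd3, Psmd7 and Psmg2. The ratio of observed to predicted CpG dinucleotides had a median of 0.787 over the 38 promoters of constitutive genes and was at or over 0.6 in 30 of them (78.9%), against 50.1% of the 17402 promoters of all genes. Of the immune subunits Psmb10 was at 0.192 and Psmb8 at 0.523, and Psmb9, at 0.5996, lay at the limit and near the median of all promoters (0.602). A broad region met 6 of the 42 promoters in B6 (14.3%), against 8.51% of all promoters, and 5 in KI (11.9%), against 8.91%.

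Each motif was searched as a fixed string of letters on both strands, with overlapping matches allowed. The antioxidant response element core TGACNNNGC was in 6 of the 42 promoters (14.3%), against 13.2% of all promoters. They belonged to Psmb5, Psmb6, Psmc6, Psmd9, Psmd12 and Psme4. The interferon-stimulated response element was in 5 (11.9%), those of Psmb3, Psmd4, Psmd9, Psme1 and Psmg4, against 3.34%. The promoters of the 3 immune subunits held none, but 3 promoters are too few to set against a share of 3.34%. The RefSeq starts of Psmb8 and Psmb9 used here lay 474 and 422 bp inside the GENCODE genes. The gamma interferon activation site TTCNNNGAA was in those of Psmb8, Psmd2 and Psmg1 (7.14%), against 7.78%. The NRF1 site was in those of Psma2 and Psmg1 (4.76%), against 1.40%, and the CCAAT box in 13 (31.0%), against 37.7%. The GAA of the activation site can fall on the interferon-stimulated element.

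B6 and KI had nearly the same coverage in most proteasome genes, as in most genes of the annotation. It was equal to the base in 26 of the 47, and within 1 point in 28 (59.6%), against 55.4% of all genes. These 2 shares differ in make-up, since 38.4% of all genes but 4.26% of the members lay under 5% in both strains. No member was higher in B6 by 20 points or more, against 5.0% of all genes, and 1, Psmb11, was higher in KI by that much, against 2.81%. Of the 42 members covered in both strains, 15 were higher in B6, 2 in KI (Psma1 and Psmd1) and 25 equal. Over the 8549 covered genes of the whole annotation, 3743 were higher in B6, 1276 in KI and 3530 equal. The largest falls from B6 to KI were those of Psmb10 (18.8 points), Psmg3 (15.4) and Psma6 (10.2). Marker genes of Sertoli cells and spermatogonia mostly moved the same way, and those of Leydig and of blood and immune cells did not. Of the 5 Leydig cell genes 4 were equal within 1 point and 1 was higher in KI. All 6 blood and immune cell genes were equal within 1 point. All 6 Sertoli cell genes were lower in KI (0% to 8.49%, against 5.19% to 71.7% in B6), and 4 of the 5 spermatogonia genes were lower in KI by 1 point or more, among them Zbtb16 (69.1% in B6, 37.2% in KI) and Sohlh1 (93.7% and 70.2%), while Gfra1 was at 0% and 5.9%. The part of these cells in the difference was not tested. The first covered base was the same in both strains for 28 of the 42 members, against 52.8% of all covered genes, and nearer to the start in B6 for 12 and in KI for 2.

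Most proteasome genes held 1 or more refined peaks. At least 1 lay in 37 of the 47 members in B6 (78.7%), against 52.7% of all genes, and in 38 in KI (80.9%), against 55.1%. Refined peaks lie inside broad regions, so these shares depend on how many genes were covered, 89.4% of members and 40.2% of all genes in both strains. There were 48 in B6 and 64 in KI, with median widths of 313 and 352 bp. Summed over all 47 members this was 49.7 peaks per Mb of gene in B6 and 66.2 in KI, against 44.2 and 53.2 over all genes. Over the 42 covered members it was 49.2 and 64.2, against 65.3 and 96.1 over all covered genes, which had a median length of 22012 bp against 12871.5 bp for the members. The median number per 10 kb of a gene was alike in covered members and all covered genes, 0.592 against 0.588 in B6 and 0.777 against 0.804 in KI. The number of refined peaks equalled that of distinct broad regions in 34 of the 42 covered members in B6 (81.0%) and 28 in KI (66.7%), against 67.9% and 61.2% of all covered genes. A single broad region met 36 of the 42 in B6 (85.7%) and 34 in KI (81.0%), against 64.1% and 54.7%. In B6 Psma8 (5) and Psme4 (3) held the most peaks, followed by 5 genes with 2 each, Psma6, Psmb1, Psmd1, Psmd2 and Psmg4. In KI they were Psmd14 (9), Psma8 (6), Psmc6 (3) and Psmg4 (3). Psmb7 held 1 peak in each strain in 56052 bp, against 5 and 6 in Psma8, a gene of nearly the same length.

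**Figure D4:**
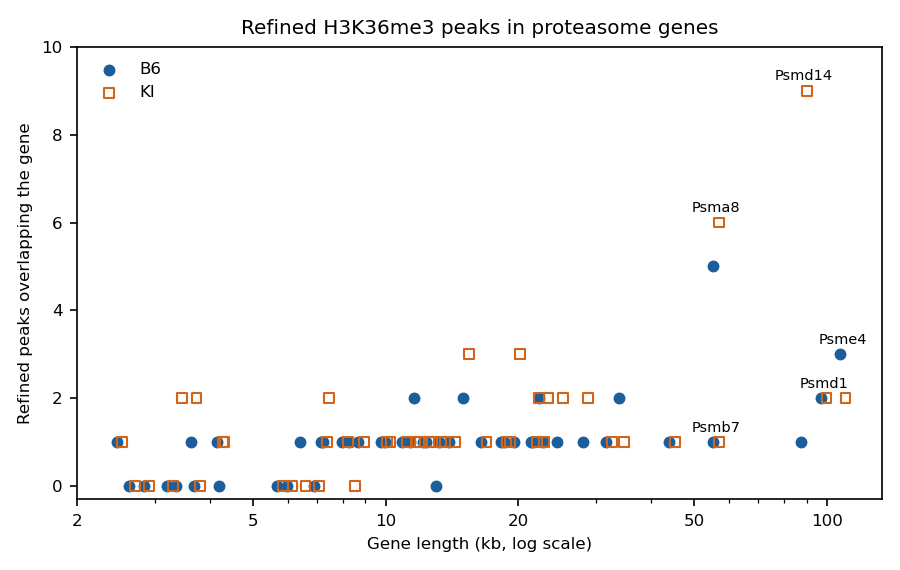
Number of refined peaks that overlap each proteasome gene against gene length in kb on a log scale, in B6 (filled circles) and KI (open squares), with the symbols of the strains shifted slightly to the left and right. Most genes hold 0 to 2 peaks at any length, and Psma8 (5 and 6) and Psmd14 in KI (9) stand above the rest.

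Refined peaks of B6 and KI rarely fell on the same bases. Of the 48 B6 peaks 9 overlapped a KI peak by 1 bp or more (18.75%, 95% Wilson interval 10.2 to 31.9), and of the 64 KI peaks 9 overlapped a B6 peak (14.1%, 7.58 to 24.6). The shares over all covered genes were 23.3% and 15.8%. The 9 genes were Psma2, Psma5, Psma8, Psmb2, Psmc3, Psmd2, Psme2, Psmf1 and Psmg4, and the stretches printed above for Psmd2 and Psmc3 are 2 of the overlaps. When the broad regions of the other strain were counted, 45 of the 48 B6 peaks and 63 of the 64 KI peaks lay in a broad region of both strains. The exceptions were the B6 peaks near the starts of Psma6 and Psme4 described above, a B6 peak centred 47148 bp from the start of Psma8, and the KI peak at the end of Psmb11.

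The peaks met exons in 26 of 48 cases in B6 (54.2%) and 26 of 64 in KI (40.6%), against 23.6% and 19.9% over all covered genes. Exons took up 11.4% of the span of the members with a B6 peak, 11.8% of that of those with a KI peak and 11.1% of that of all covered genes, but the members have more exons per kb, with medians of 0.649 and 0.452. Along the gene, 6 B6 peaks were centred in the first 20% of the length and 19 in the last 20% or beyond it. The other 23 lay between, and in KI the counts, in the same order, were 9, 14 and 41. Peaks centred beyond the gene end were those of Psma1 and Psme2 in B6 and of Psme2 in KI.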

How the data were processed

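Per the labels and the study's methods, chromatin of germ cells was precipitated with an antibody against H3K36me3 (1 label spells the mark differently), sequenced, aligned to mm9 with BWA 1.2.3 and reduced to reads of unique position. The 2 biological replicates of a strain were merged by the authors before ZINBA called regions against the input (window of 1000 bp moved by an offset of 500 bp, peak window 750, window gap 250, no FDR filter). The deposited lists hold positions and no score, height, count or signal, so no threshold could be changed and the depth at a region cannot be given. By the study's methods KI had more aligned reads than B6. Broad regions were listed once per refined peak and were used once. Positions were read as 1-based with both ends included. Python 3.11.15 with numpy 2.4.6, pandas 2.3.3, scipy 1.17.1 and matplotlib 3.10.9 was used, and the interval functions were tested on simulated data. Where a symbol had 2 records, the record with the lowest identifier was used. Gene roles, lists, motifs and limits, and the members themselves, were chosen with earlier results of these data known. Members were named by rule where they were immune, thymus, testis or activator subunits or counterparts of these, lay under 50% in a strain, differed by 20 points between strains, held overlapping peaks of both strains or were among the 3 with the most peaks. The other members, and genes of the other lists, were named after their values were seen. Wilson intervals cover counting error only. Exon, length, overlap and limit alternatives were tried. Promoters come from a RefSeq table of GRCm38.p6 and were placed on mm9 by exact match. Annotation symbols not found were Paaf1, Nlrc5 and Meiob.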

Additional observations from a re-analysis of the deposited data

How the results depend on the processing

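Of 53 alternatives, 45 planned and 8 chosen after seeing the data (all gene records in place of gene names, and constitutive members only), 48 moved a count by no more than 1.5 times or left a median or share within its 95% interval. Among 47 members none of the counts could rise by 1.5 times, so only a large fall would have moved one. The constitutive members are 42 of the 47, so their use alone could hardly move a count. The number of covered members ranged from 39 to 44 in B6, 38 to 44 in KI and 38 to 43 in both strains. At a limit of 80% Psma6, Psma7 and Psme1 were no longer covered in either strain, nor Psmg4 in B6 and Psmg3 in KI, and at 20% Psmb10 was covered in B6 and Psmb11 and Psmg4 in KI. At the 50% limit Psmb10 in B6 and Psmg4 in KI became covered without the first 1000 bp of each gene, Psmg4 in KI also with gaps of up to 1000 bp joined, and Psmg4 in B6 was no longer covered over merged exons. Over merged exons only the median coverage in B6 was 91.2%, and without the first 1000 bp of each gene it was 100% in B6 and in KI. When a peak also counted as shared if it lay in a broad region of the other strain, 93.75% of B6 peaks and 98.4% of KI peaks in members were.

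No paired analysis was possible because each strain has 1 pooled list and no replicate numbers are left in it. No replicate was left out and no stricter threshold applied, since the lists are pooled and hold no score. A gene without a region is one in which none was called at an unknown depth, not one shown to lack the mark.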
